A study of Homo sapiens with 5 samples.

Results

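Cytokine-dependent gene expression was compared between Steel factor and erythropoietin (Epo) in TF-1 cells that express DbSCL, a form of the transcription factor SCL that cannot bind DNA. TF-1 is an established human erythroleukaemia line that depends on GM-CSF and serves as a model of erythroid progenitors. The comparison rests on 2 of the 5 arrays of the series, 1 per group, and takes in every probe set that the array annotation assigns to a single gene symbol, array controls left out. These were 19065 of 22283 probe sets, standing for 11963 genes, of which 8472 had a signal above the floor on at least 1 of the compared arrays. The group under Steel factor (SF) was TF-1 cells carrying a GFP-marked MSCV retrovirus with DbSCL, stimulated with SF at 20 ng/mL for 6 h. The group under Epo was the same cell population stimulated with Epo for 6 h, at a dose that the labels do not give. The other arrays came from cells with the GFP-marked MSCV vector alone, under SF (20 ng/mL), Epo or GM-CSF (5 ng/mL) for 6 h. All cells had been kept in GM-CSF and were deprived of growth factor overnight before stimulation. Unstimulated cells were not among the samples, so the part of SF and that of Epo in a difference cannot be told apart. The labels do not say whether each cell population was a clone or a bulk culture, and the retroviral promoter drives DbSCL beside the cells' own SCL. Each group had 1 array, so no difference below has a replicate check and no p-value was computed.

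SF is the ligand of c-Kit, a receptor tyrosine kinase that signals through RAS and ERK, PI3 kinase and SRC family kinases and supports the survival and growth of early erythroid progenitors and mast cells. Epo binds a cytokine receptor without kinase activity of its own, which signals through JAK2 and STAT5 and carries later erythroid progenitors to haemoglobin synthesis. SCL, encoded by TAL1, is a basic helix-loop-helix protein that binds E-box DNA together with an E protein such as those of TCF3, and joins GATA1, LMO2 and LDB1 in a complex at erythroid genes. A form without DNA binding can still pair with E proteins. The question of the comparison was which genes differ between the c-Kit ligand and Epo when such a form is present, and whether they are those that differ in vector cells.

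Values are log2 signals of a probe set as summarised by the authors, and a difference is the log2 signal on the SF array minus that on the Epo array. The brightest probe set stood for a gene, and lower signals were set to a floor of 4.45. A gene was called different at 2-fold, a log2 difference of 1. The 1.5-fold level, a log2 difference of 0.585, was used as a second call. The DbSCL SF and DbSCL Epo arrays correlated with Pearson's r of 0.984 across the 8472 genes, which are not independent replicates. The differences had a median of 0.00 and a scaled median absolute deviation of 0.21. Their 1st and 99th percentiles were −0.76 and 0.58. Of the 8472 genes 3899 lay above 0, 3683 below 0 and 890 held equal values on both arrays.

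Control probe sets differed between the arrays as well. The hybridization controls, spiked into the mix for every array, read 10.82 on the DbSCL SF array and 10.04 on the DbSCL Epo array, a difference of 0.78. The difference of the same controls between the vector SF and vector Epo arrays was 0.43. The poly(A) controls differed by −0.25, the 28S probe sets by −0.20 and the 18S probe sets by 0.33. For beta-actin the 3' probe set exceeded the 5' one by 3.33 under SF and 3.01 under Epo, and by 1.89 to 2.74 on the vector arrays. Split by signal into 10 bins of genes, the weakest had a median difference of 0.02 and the brightest of −0.04. The part of these array properties in the differences below was not tested.

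Genes active in erythroid cells were above the floor on both DbSCL arrays. GATA1 had signals of 6.57 under SF and 6.69 under Epo, KLF1 of 7.78 on both, and TFRC, the transferrin receptor gene, of 12.50 and 12.31. Above the floor on a DbSCL array were 10 of 19 monocyte and granulocyte markers and 15 of 21 lymphoid markers. Neither list held a member at 1.5-fold, beside 3.71% of all genes compared. Their signals were mostly weak: MPO, the neutrophil peroxidase gene, had 4.55 and 4.52, the T cell gene CD3G 5.02 and 4.96 and the B cell gene PAX5 5.49 and 5.25. CD3D (6.56 and 6.72), CD22 (6.66 and 6.35) and CEBPB (7.16 and 7.48) were brighter, near the GATA1 signals or above them. In RNA of whole cultures, fewer cells of a type and less RNA per cell cannot be told apart.

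In DbSCL cells 17 genes were 2-fold or more lower under SF than under Epo and 2 were higher. These 19 genes were 0.224% of those compared, with 0.201% lower and 0.0236% higher. At 1.5-fold 237 genes (2.8%) were lower and 77 (0.909%) higher, together 3.71%. The lower genes included GTF2H1 of general transcription, DENR of translation, STIL and DBF4 of the cell cycle, and MSMO1 and HMGCS1 of cholesterol synthesis. Nearest the threshold were POLR1D (5.95 and 6.95) just inside and ESF1 (−0.98) outside it. On the higher side FXYD5 (1.12) was inside and RMND5B (0.91) outside.

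**Figure D1:**
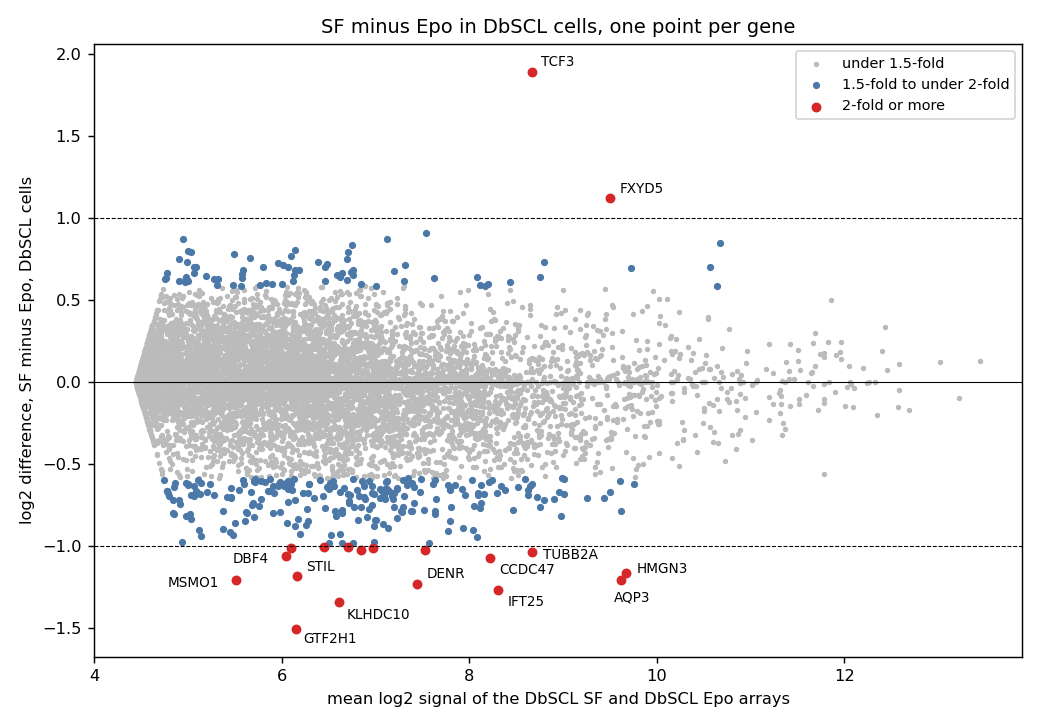
The log2 difference between SF and Epo in DbSCL cells (vertical axis) is plotted against the mean log2 signal of both arrays (horizontal axis) for 8472 genes, with 2-fold marked by dashed lines. The 17 genes below the lower line lie at many signal levels, and TCF3 and FXYD5 are above the upper line.

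GTF2H1, a core subunit of the general transcription and DNA repair factor TFIIH, was the lowest. Its signals were 5.41 on the DbSCL SF array and 6.91 on DbSCL Epo, against 6.27 on vector GM-CSF, 6.63 on vector SF and 6.83 on vector Epo. The difference was −1.50, or 2.83-fold, and the DbSCL SF array lay 0.87 below the lowest of the others. A second GTF2H1 probe set gave 0.40, on the opposite side of 0. Of 38 compared genes in a list of TFIIH and general transcription genes CDK8, the Mediator kinase gene, was also 1.5-fold lower (4.87 and 5.54, difference −0.67, but −0.12 with a floor at percentile 60), and none was higher. The median of the list was −0.07, and of all genes compared 2.8% were 1.5-fold lower and 0.909% higher. The list is not complete: GTF2H5, another TFIIH subunit (6.21 and 6.82, −0.61), and the Mediator gene MED1 (−0.84, other probe set −0.38) were 1.5-fold lower outside it.

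Translation and ribosome genes followed. DENR, which acts in translation reinitiation and ribosome recycling, had signals of 6.83 under SF and 8.06 under Epo in DbSCL cells, and of 7.62 to 8.40 on the vector arrays. Its difference was −1.23 (2.34-fold). EIF4E, the cap-binding factor, was lower in its brightest probe set (6.39 and 7.23, difference −0.84) and in its other probe sets (−0.93 and −0.37). EIF1AX (−0.66, other probe sets −0.39 to −0.06) was lower as well, while EIF5A was higher (0.64, other probe sets −0.11 and 0.40). Of the 41 compared genes of the translation list 3 were thus 1.5-fold lower and 1 higher, with a list median of −0.03. Outside the list, EIF1B, an initiation factor gene (7.48 and 8.11, −0.64), and ETF1, the release factor gene (−0.77, other probe set −0.11), were also lower. POLR1D, a subunit shared by RNA polymerases I and III, had signals of 5.95 and 6.95. Of 34 ribosome biogenesis genes NOP14 (−0.76) and GAR1 (−0.68) were lower and none was higher. At 1.5-fold 2.8% of all genes compared were lower and 0.909% higher. Mitochondrial ribosomal protein genes had 2 of 44 lower, MRPS18B (−0.97, other probe set 0.10) and MRPL13 (−0.63), with 29 below 0, 11 above 0 and a median of −0.06. Cytosolic ribosomal protein genes had no lower member among 51. RPLP2 was the 1 higher (7.56 and 6.68, difference 0.87), and its other probe set gave 0.33.

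STIL and DBF4, which no list held, were among the 17 lower genes. STIL, needed for centriole duplication, had signals of 5.57 and 6.75 (−1.18, 2.27-fold), the vector arrays lying between 6.31 and 6.68. DBF4, the activator of the CDC7 replication kinase, had 5.52 and 6.58 (−1.06), with vector values from 5.64 to 5.96. For STIL the SF array stood apart from the vector arrays by 0.73, whereas for DBF4 it lay only 0.12 below them and the Epo array was the high one. TTK, the spindle checkpoint kinase MPS1, had 6.16 and 7.14 (−0.98), and the cyclin gene CCNA2 6.25 and 7.03 (−0.78, other probe set −0.10). Of 35 mitosis and G2/M genes these 2 were 1.5-fold lower and none was higher, beside 2.8% and 0.909% of all genes compared. The list median of −0.15 was the lowest of the 38 lists, with 22 members below 0 and 11 above, against 0.00 for all genes compared. The kinase gene PLK1 (0.56) and AURKB (0.43) gave the largest positive values of the list.

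Of 33 DNA replication and G1/S genes 3 were 1.5-fold lower, beside 2.8% of all genes compared. The 3 were both subunits of ribonucleotide reductase, RRM2 (8.58 and 9.39, difference −0.81) and RRM1 (7.96 and 8.64, −0.68), and GINS1 of the replicative helicase (−0.63). RRM2 had the same signal of 9.39 on the DbSCL Epo, vector Epo and vector GM-CSF arrays, and a second RRM2 probe set gave 0.21. The list median was −0.09, with 20 below 0 and 9 above. E2F3, a transcription factor of G1/S genes, was lower in each probe set, by differences of −0.69 and −0.66. CDKN1B, the cyclin-dependent kinase inhibitor p27, was 4.69 under SF and 5.38 under Epo (−0.69), and in vector cells 5.38 and 5.94 (−0.56), lower under SF in each population. It was the 1 called member of 17 cell cycle inhibitors, whose median was 0.04.

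HMGN3, a nucleosome-binding protein gene, had signals of 9.09 and 10.25 (−1.16), against 9.72 to 9.83 in vector cells. PDS5A, a cohesin regulator, had 7.01 and 8.04 (−1.02, other probe set −0.30). TUBB2A, a beta-tubulin gene, had 8.16 and 9.19 (−1.03), while in vector cells SF exceeded Epo (9.93 and 9.33). TUBA1A, an alpha-tubulin gene, was lower too (6.50 and 7.32, −0.82). Of 38 tubulin and actin cytoskeleton genes 4 were 1.5-fold lower, also CAPZB (−0.68, other probe sets −0.08 to 0.31) and ARPC3 (−0.59), and 2 were higher, ARPC1A (0.62) and ARPC4 (0.59, other probe set 0.01). The Arp2/3 genes thus lay on both sides of 0. The median of the list was −0.12, beside shares of 2.8% lower and 0.909% higher at 1.5-fold among all genes compared.

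The remaining 2-fold lower genes had mixed roles. AQP3, an aquaglyceroporin gene, was bright on every array, with 9.01 on DbSCL SF, 10.22 on DbSCL Epo and 10.28 to 10.65 in vector cells (−1.21). Its other probe sets gave −0.01 and 0.00. KLHDC10 (−1.34, other probe sets 0.00 and 0.00), the intraflagellar transport gene IFT25 (−1.27, other −0.27) and SH3BGRL (−1.01, other 0.12) likewise had probe sets that differed less or not at all. CCDC47, of the endoplasmic reticulum membrane (−1.07), BCL10, an adaptor in NF-kappa B signalling (−1.01), and RTN1, a reticulon (−1.02, other −0.33), completed the group with XK.

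XK, which encodes the red cell membrane protein of the Kell complex, was the member of the erythroid membrane and surface list among them. Its signals were 5.59 on DbSCL SF and 6.60 on DbSCL Epo, against 5.61 on vector GM-CSF, 5.74 on vector SF and 6.04 on vector Epo (−1.01, 2.01-fold). The Epo array was thus the high one, and the SF array lay 0.02 below vector GM-CSF. In vector cells the XK difference was −0.30. Of 17 erythroid membrane and surface genes no other was called, beside 3.71% of all genes compared. RHAG, the Rh-associated glycoprotein gene, gave −0.52 (other probe sets −0.04 and 0.03), and CA1, carbonic anhydrase 1, gave 0.44, from 9.24 and 8.81. The CA1 order was the opposite in vector cells, with 8.68 and 9.18. The list median was 0.13, the highest of the 38, with 12 members above 0 and 5 below.

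**Figure D2:**
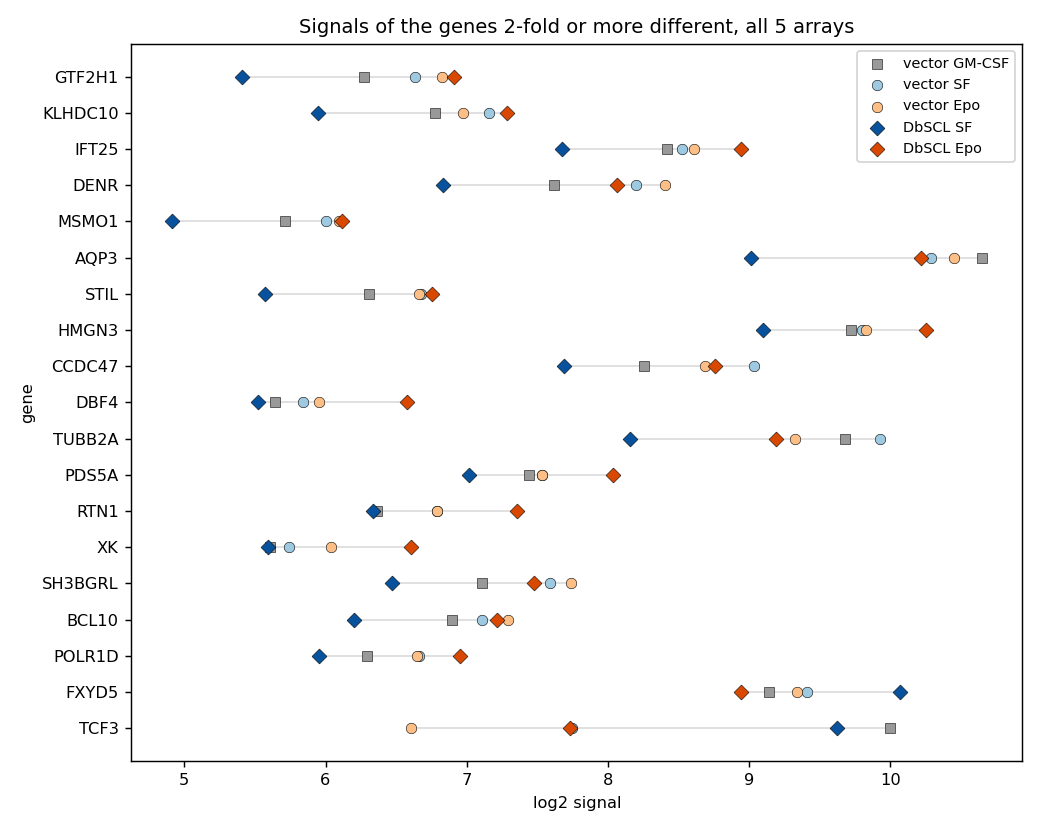
Log2 signals (horizontal axis) of the 19 genes 2-fold or more different between SF and Epo in DbSCL cells are shown on all 5 arrays, with diamonds for the DbSCL arrays. The dark blue DbSCL SF point is the lowest of the 5 in each of the 17 upper rows, and TCF3 and FXYD5 are the bottom rows.

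Which of the compared arrays stood apart could be read from the vector arrays. In all 17 lower genes the DbSCL SF array had the lowest signal of the 5, by 0.02 to 1.21 below the next, and in 11 of them the DbSCL Epo array had the highest. At 1.5-fold the SF array was lowest in 178 of 237 lower genes (75.1%) and highest in 66 of 77 higher genes (85.7%). The Epo array was highest in 117 of the lower genes (49.4%) and lowest in 36 of the higher genes (46.8%). Over all genes compared the SF array was lowest in 17.6% and highest in 20.8%. The Epo array was highest in 14.1% and lowest in 12.4% of them. The genes were chosen by their values on these arrays, so these shares are a description.

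TCF3 and FXYD5 were the 2 genes higher at 2-fold. FXYD5, which encodes dysadherin, a regulator of the sodium pump and of cell adhesion, had signals of 10.07 under SF and 8.94 under Epo in DbSCL cells, and 9.14 to 9.41 on the vector arrays (1.12, 2.17-fold). It had 1 probe set. TCF3, the gene of the E proteins E12 and E47, had 9.62 and 7.73 in its brightest probe set (1.89, 3.71-fold) and 10.00 on vector GM-CSF, 7.74 on vector SF and 6.60 on vector Epo. The DbSCL SF signal was thus near that of vector GM-CSF. Its 10 further probe sets ranged from −0.55 to 0.52, on both sides of 0, and averaging all of them gave 0.17. Further down, CSNK2B, the regulatory subunit of casein kinase 2 (0.85), ALG3 of N-glycan synthesis (0.73) and IFITM2, an interferon-induced membrane protein gene (0.70), were 1.5-fold higher. Many of the other higher genes had weak signals: in 34 of the 77 the mean of both arrays was under 6, as it was in 69 of the 237 lower genes and in 46.9% of all genes compared. The 15 genes with the largest positive difference also held AP4M1, an adaptor complex subunit gene (0.88), GLI3, a Hedgehog pathway transcription factor gene (7.17 and 6.33, difference 0.84), CPNE7 (0.81), GATB (0.80), HLA-J (0.80), NLGN3 (0.79), ADRA2C (0.78), RCN3 (0.77, other probe set 0.52), GPR27 (0.76) and EDC3, an mRNA decapping factor gene (0.75). With a floor at percentile 60 NLGN3 gave 0.00 and ADRA2C 0.45. AP4M1, GATB and EDC3 lay below that floor on both DbSCL arrays and had no value.

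Where a gene had further probe sets, they often did not repeat its difference. Of the 237 lower genes 82 had another probe set above the floor. In 44 of these all others lay on the same side of 0, in 29 at least 1 lay on the opposite side, and in 3 all were 1.5-fold lower. Of the 77 higher genes 24 had another probe set, all others lay on the same side in 17, and in 1 all were 1.5-fold higher. Over all 2471 compared genes with several probe sets, 43.0% had all others on the same side and 0.162% had all at 1.5-fold. Of these 4 genes 3 were E2F3, RFK, the riboflavin kinase gene (−0.70 and −0.73), and BAIAP3, an exocytosis factor gene (0.66 and 1.11). The other one, a lower gene, is not reported here. BAIAP3 signals were 5.91 and 5.25 in the brightest probe set, and 5.61 and 4.50 in the other. Of the 7 lower genes at 2-fold with another probe set, none had a second one at 1.5-fold.

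**Figure D3:**
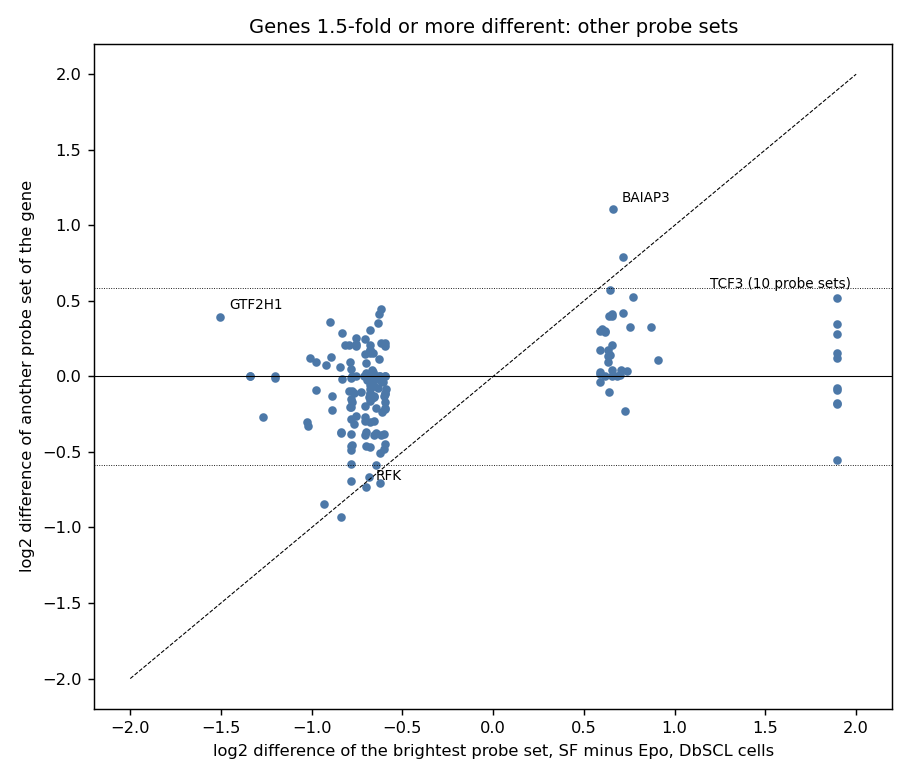
For genes 1.5-fold or more different in DbSCL cells, the log2 difference of each other probe set (vertical axis) is plotted against that of the brightest one (horizontal axis), with equality as a dashed line and 1.5-fold as dotted lines. Most points lie nearer to 0 than the line, including the GTF2H1 probe set at 0.40.

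The same cytokines compared in vector cells rest on separate arrays and share none with this comparison. There 1 gene was 2-fold higher (0.012%) and 2 lower (0.0241%) of 8312, together 0.0361%. At 1.5-fold 29 were higher (0.349%) and 96 lower (1.15%), together 1.5%. Across the 8247 genes compared in both, Pearson's r between the differences was 0.102 and Spearman's rho 0.121, and r was 0.098 without TCF3. This is across genes, which are not independent replicates. Of the 237 genes lower in DbSCL cells 4 were also 1.5-fold lower in vector cells, 1.69% of the DbSCL list and 4.21% of the 95 in the vector list that were compared in both. Of the 76 higher ones 2 were shared, 2.63% of the DbSCL list and 6.90% of the 29 in the vector list.

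The 4 shared lower genes were RTCA, the RNA 3'-phosphate cyclase gene (−0.88 in DbSCL and −0.72 in vector cells), the ubiquitin ligase gene PJA2 (−0.84 and −0.61), MRPL13 (−0.63 and −0.62) and RAB11FIP1, of endosome recycling (−0.61 and −0.78). RTCA had signals of 6.54 and 7.42 in DbSCL cells, 7.42 and 8.14 in vector cells under SF and Epo, and 6.32 under GM-CSF. Each of the 4 was thus higher under Epo in both populations, and all had 1 probe set above the floor. The 2 shared higher genes were TCF3 (1.89 and 1.14) and RPLP2 (0.87 and 0.96). In DbSCL cells their other probe sets gave −0.55 to 0.52 for TCF3 and 0.33 for RPLP2. In 5 further genes the populations moved past 1.5-fold in opposite directions. Of the lower genes 1.27% were 1.5-fold higher in vector cells, beside 0.342% of all genes compared. Of the higher genes 2.60% were 1.5-fold lower there, beside 1.12%. TUBB2A, MTA1 and EWSR1 were lower under SF in DbSCL cells (−1.03, −0.92 and −0.85) and higher in vector cells (0.60, 0.74 and 0.75). HMG20B and ARPC1A were higher in DbSCL cells (0.59 and 0.62) and lower in vector cells (−0.82 and −0.81).

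**Figure D4:**
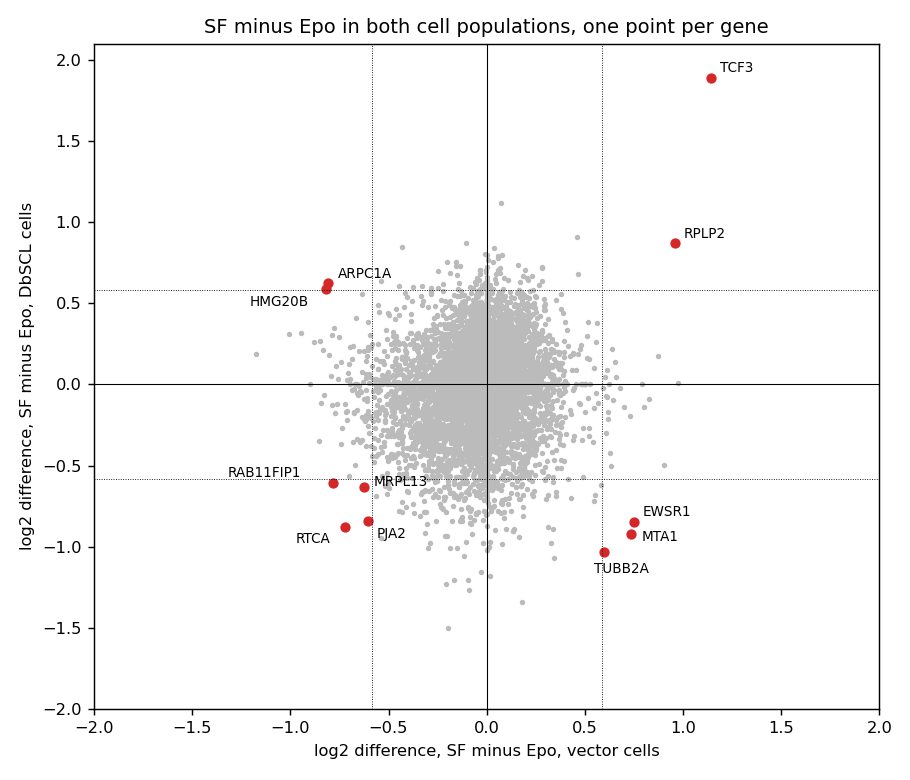
The log2 difference between SF and Epo in DbSCL cells (vertical axis) is plotted against that in vector cells (horizontal axis) for genes compared in DbSCL cells, with 1.5-fold as dotted lines and genes past it in both named. The cloud is not drawn out along a diagonal, and the named genes fall in all 4 corners.

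Genes that separated the cytokines in vector cells had medians near 0 in DbSCL cells. The 95 genes 1.5-fold lower under SF in vector cells had a median of −0.67 there and of −0.03 in DbSCL cells, with 49 below 0 and 42 above. The 29 genes higher in vector cells had medians of 0.65 and −0.08. In DbSCL cells the 95 genes ran from −0.88 to 0.62, with 4 lower and 2 higher at 1.5-fold. The 29 ran from −1.03 to 1.89, with 3 lower and 2 higher. Of all genes compared 2.8% were lower and 0.909% higher. These sets were chosen as extremes of the vector arrays and are read here in other arrays. Values so chosen tend to lie nearer 0 when read again, so the medians cannot show that a cytokine difference was lost. CSTB, the protease inhibitor cystatin B, had 8.79 and 9.80 in vector cells under SF and Epo (−1.01), and 8.68 and 8.37 in DbSCL cells (0.31). PDSS1, of coenzyme Q synthesis, was 2-fold lower in vector cells (−1.17, Epo signal 8.17), and had 7.06 and 6.88 in DbSCL cells (0.19). ALAS1, which catalyses the first step of haem synthesis, was 6.06 and 6.69 in vector cells (−0.62) and 5.53 and 5.62 in DbSCL cells (−0.09). HEBP1, a haem-binding protein gene that did not reach 1.5-fold in vector cells, was 6.89 and 7.39 (−0.50), and 6.00 and 5.99 in DbSCL cells (0.01). CD36, the scavenger receptor gene, was 6.53 and 7.22 (−0.68), and 5.84 and 5.68 in DbSCL cells (0.16). For ALAS1, HEBP1 and CD36 both DbSCL signals lay below those of vector cells under the same cytokine. Whether the cytokine difference itself differs between the populations could not be tested with 1 array per group.

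Globin and haem genes had no called member among 21, with medians of 0.00 here and −0.04 in vector cells, and their differences ran from −0.29 to 0.36, with 10 above 0 and 10 below. The erythroid haem synthase gene ALAS2 gave 0.36 (6.69 and 6.33), zeta globin HBZ 0.35, HBB −0.09 and delta globin HBD −0.19. The 10 iron genes of the list ranged from −0.36 to 0.19 with no call, and TFRC gave 0.19. The list is not complete: HEPH, a ferroxidase gene of iron release, was 1.5-fold lower outside it (4.78 and 5.46, −0.68). Among all genes compared 3.71% were called at 1.5-fold. Among 25 genes for SCL partners and erythroid transcription factors, TCF3 was 1.5-fold higher in its brightest probe set only. Its 10 other probe sets ran from −0.55 to 0.52. TCF4, another E protein gene, was lower (6.18 and 6.96, −0.78, with its 5 other probe sets from −0.49 to −0.01). TCF12, the third E protein gene, gave −0.49. TAL1 had 8.29 and 8.31 (−0.02), with −0.21 in its second probe set, LMO2 gave 0.23, LDB1 0.00, GATA1 −0.12 and GATA2 0.26, with 9.91 and 9.65. The median of this list was 0.00. ID2, an inhibitor of helix-loop-helix factors, was 6.56 under SF and 6.79 under Epo (−0.23, other probe set 0.15), and none of the 12 compared genes of its list was called.

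For genes of the c-Kit and Epo pathways, calls are read beside the 3.71% of all genes compared that passed 1.5-fold. KIT had 6.33 under SF and 6.62 under Epo (−0.28), and EPOR 8.80 and 8.33 (0.46) in its brightest probe set. The 3 other EPOR probe sets above the floor gave 0.00 to 0.26. They were much weaker, with signals of 4.45 to 5.76 on the DbSCL arrays, so the EPOR level and difference rest on 1 probe set. CSF2RB, the common beta chain, had 7.83 and 8.24 (−0.40). Of 19 c-Kit pathway genes SOS1, the RAS exchange factor, was 1.5-fold lower (7.25 and 8.03, −0.78, other probe set 0.05), with −0.45 in vector cells. Of 13 receptor and JAK-STAT genes none was called. Of 18 ERK immediate early and feedback genes none was called, with a median of 0.04. The ETS factor gene ETV4 (0.53) and the AP-1 genes FOSL1 (0.44) and JUNB (0.44) were the highest, and JUND (−0.42) the lowest. EGR1 held the value 4.88 on both arrays, and DUSP6 and SPRY2 were below the floor on all 5. All cells were taken at 6 h, and no earlier time was measured.

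Of 12 STAT5 target and feedback genes 1 was called, beside 3.71% of all genes compared. This was PIM1, a serine/threonine kinase gene that promotes survival. Its signals were 8.72 under SF and 9.31 under Epo in DbSCL cells (−0.59), against 9.08 on vector GM-CSF, 8.93 on vector SF and 9.37 on vector Epo (−0.44). Epo was thus above SF in both populations. CISH, a STAT5-induced inhibitor of cytokine receptor signalling, had 7.43 and 7.40 (0.03) in DbSCL cells and 7.33 and 7.40 in vector cells. SOCS2 gave −0.09, BCL2L1 0.00 and MYC 0.01, and the list median was −0.04. The CISH promoter is shown because it holds 4 matches to TTCNNNGAA, the STAT5-type palindrome, although its signal was level between the cytokines. The window runs from 250 bases before to 50 after the start of the gene, chr3:50611725-50612024 on the minus strand of GRCh38.p14, from RefSeq, with the matches in capitals.
CISH: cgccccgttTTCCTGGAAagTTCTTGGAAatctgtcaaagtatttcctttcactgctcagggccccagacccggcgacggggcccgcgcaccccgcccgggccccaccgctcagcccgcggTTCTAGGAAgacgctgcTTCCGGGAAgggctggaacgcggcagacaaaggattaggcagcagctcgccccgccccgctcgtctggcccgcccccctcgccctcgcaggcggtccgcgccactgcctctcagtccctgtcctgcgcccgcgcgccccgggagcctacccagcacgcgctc
The PIM1 window held 0 matches, which says only that these letters are not in that window. RefSeq promoters were found for 6911 of the compared genes. TTCNNNGAA, which reads the same on both strands, occurred in 6.51% of them, in 20 of 200 windows of lower genes (10.0%) and in 1 of 62 windows of higher genes (1.61%). The GATA motif AGATAA on either strand occurred in 5.54%, 5.50% and 0 of 62 in the same order, and the E-box CAGATG on either strand in 10.0% of windows of all compared genes, 8 of 200 of lower genes and 4 of 62 of higher genes. Over all 27305 RefSeq promoter windows the shares were 7.88% for TTCNNNGAA, 10.5% for AGATAA and 14.8% for CAGATG. A match is a sequence of letters and not a binding site.

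Cholesterol and fatty acid synthesis genes had 3 of 22 members 1.5-fold lower under SF and none higher, beside 2.8% and 0.909% of all genes. MSMO1, the sterol C4-methyl oxidase, had 4.91 and 6.12 in DbSCL cells, against 5.71 on vector GM-CSF, 6.00 on vector SF and 6.10 on vector Epo (−1.21, 2.31-fold). HMGCS1, which makes HMG-CoA at the head of the pathway, had 6.24 and 7.04, and 6.83 to 7.10 in vector cells (−0.80). ELOVL6, a fatty acid elongase, gave −0.59 (other probe set −0.11). For these genes the DbSCL SF array was the lowest of the 5. MSMO1 gave −0.69 with a floor at percentile 60, losing its 2-fold call, and HMGCS1 gave −0.40 when its probe sets were averaged. Of the uncalled members FDPS gave −0.36, ACLY −0.40 (other probe sets 0.00 and 0.55), FASN −0.29 (other 0.29), INSIG1 −0.14 (others −0.82 and −0.11) and EBP 0.34 (others −0.09 and 0.60), so second probe sets of several lay on the other side. In all 14 members lay below 0 and 5 above, with a median of −0.10, and in vector cells the median was 0.00. The promoters of MSMO1 and HMGCS1 are shown as those of the leading sterol genes, with matches to CCAAT, the NF-Y box common at sterol-regulated promoters, in capitals on either strand. The windows are chr4:165327419-165327718 on the plus strand, with 4 matches, and chr5:43313363-43313662 on the minus strand, with 2, both of 300 bases in GRCh38.p14 from RefSeq.
MSMO1: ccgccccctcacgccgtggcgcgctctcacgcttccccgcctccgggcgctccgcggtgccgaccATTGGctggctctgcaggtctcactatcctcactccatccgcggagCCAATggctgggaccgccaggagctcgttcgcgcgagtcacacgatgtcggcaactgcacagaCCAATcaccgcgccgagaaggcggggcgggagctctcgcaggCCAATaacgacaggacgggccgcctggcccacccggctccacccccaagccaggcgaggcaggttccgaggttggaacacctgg
HMGCS1: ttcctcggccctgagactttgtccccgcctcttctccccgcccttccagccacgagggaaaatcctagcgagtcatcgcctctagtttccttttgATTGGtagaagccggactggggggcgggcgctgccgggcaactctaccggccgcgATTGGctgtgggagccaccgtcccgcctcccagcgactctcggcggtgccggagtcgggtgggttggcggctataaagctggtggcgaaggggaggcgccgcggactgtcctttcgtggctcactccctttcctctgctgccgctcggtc
CCAAT occurred in 37.4% of the windows of all compared genes, in 41.0% of those of lower genes and in 46.8% of those of higher genes, and in 35.7% of all RefSeq promoter windows.

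In the glycolysis and hypoxia list 3 of 29 genes were 1.5-fold lower, beside 2.8% of all genes compared. HIF1A, the hypoxia-inducible factor gene (5.88 and 6.65, −0.77), BNIP3, a mitophagy receptor (−0.65, other probe set −0.02), and SLC2A3, the glucose transporter GLUT3 (−0.61), were the 3. Glycolytic genes such as ALDOA (0.40), PFKM (0.37) and GPI (0.32) lay above 0 and HK2 (−0.23) and PFKFB3 (−0.44) below, and 19 of 29 glycolysis and hypoxia genes were above 0 and 8 below (median 0.04). Of 26 amino acid stress and unfolded protein genes MTHFD2, of mitochondrial folate metabolism (−0.76), and SLC7A11, the cystine transporter (−0.72), were lower. Of 14 BCL2 family genes BAK1, a pore-forming death effector, had 4.94 and 5.62 (−0.68, and 0.31 in vector cells) and was lower with BNIP3. With a floor at percentile 60 BAK1 gave −0.19. The list median was −0.14, with 8 below 0 and 4 above. MCL1 (−0.13) and BCL2L1 were not called.

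Splicing factor genes had 4 of 40 members lower, SRSF11 (−0.79, other −0.28), SRSF1 (−0.62), SF3A3 (−0.61) and HNRNPA3 (−0.60), with 25 below 0, 11 above and a median of −0.08. The shares over all genes compared were 2.8% lower and 0.909% higher at 1.5-fold. SRSF1 was lower in all 3 of its probe sets above the floor (others −0.70 and −0.51), with 9.44 and 10.06 in the brightest and 9.45 and 8.86 in vector cells. Of 36 nuclear pore and transport genes NUP43 was lower (7.09 and 8.06, −0.98) and NUP93 higher (9.07 and 8.43, 0.64). HSPH1 (−0.78, other −0.17) was the 1 of 34 chaperone genes, CARS1 (−0.63, other 0.00) of 16 tRNA synthetase genes, UQCRQ (−0.67) of 38 respiratory chain genes, and the proton pump genes ATP6V1A (−0.72) and ATP6AP2 (−0.63, other 0.11) were the 2 of 37 lysosome genes. The respiratory chain and chaperone lists are not complete. Outside them the complex I genes NDUFA5 (−0.84) and NDUFB1 (−0.59) and the assembly factor gene NDUFAF1 (−0.75) were 1.5-fold lower. The chaperone genes DNAJC15 (−0.81) and PFDN4 (−0.71, other probe sets −0.27 and 0.24) were lower as well. Proteasome genes had no call among 35, with a median of 0.00 against −0.15 in vector cells.

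Lineage lists other than the erythroid ones are likewise given beside the 3.71% of all genes called at 1.5-fold. No call was made among 12 mast cell and basophil genes, of which PRG2 (10.12 and 9.66, 0.47) and CTSG (0.47) were highest, nor among 13 megakaryocyte genes, where PF4 gave 0.52. CD59, a complement inhibitor (−0.60, other probe sets −0.12 and 0.20), was the 1 of 15 stem and progenitor antigens. PTPRC, the leukocyte antigen CD45, gave −0.43. Integrins and adhesion genes (20), MHC class II genes (11), and replication-dependent histone genes (13) held no call, and of 31 interferon response genes IFITM2 was called. Over all lists 7 genes were 1.5-fold higher and 43 lower of the 914 compared, beside backgrounds of 0.909% and 2.8% of all genes, and 13 of 38 lists held none.

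**Figure D5:**
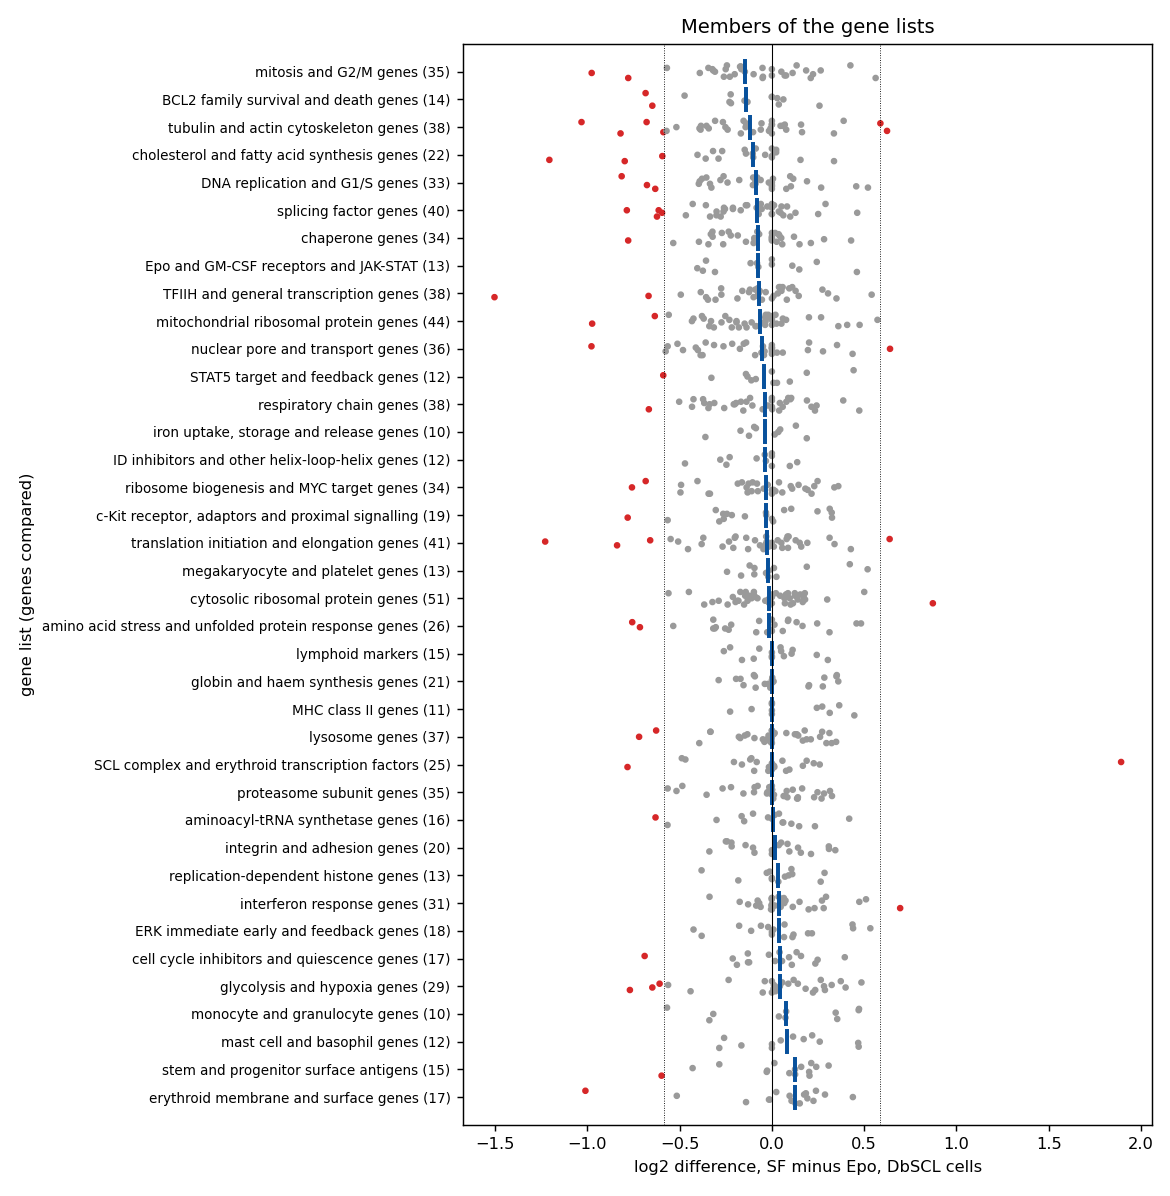
Each row is a gene list with its number of compared genes, each point the log2 difference between SF and Epo in DbSCL cells of 1 member, and the blue bar the list median, with 1.5-fold as dotted lines and members past it in red. The medians lie between −0.15 and 0.13, and red points are more frequent on the left.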

How the data were processed

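Gene expression was read on Affymetrix oligonucleotide arrays from 5 RNA samples, 1 per group, and groups were taken from the labels. The values deposited by the authors are log2 signals, 1 for each probe set on each array. The summary method, software and normalization between arrays are not given in the sources used here. That they are log2 was inferred from their range, 2.08 to 13.77. The column medians lay between 4.90 and 4.99, and values were used as deposited. If arrays were normalized to each other, a change in most genes at once would not be seen.

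Symbols came from the platform's annotation: 19065 probe sets had 1 symbol, 1043 several and 2107 none, apart from 68 controls. Gene IDs of 19053 were found in the RefSeq gene table (GRCh38.p14) and 0 symbols were changed. For the 4310 genes with several probe sets the brightest on average across arrays was used. The floor was set at percentile 40 of the values of probe sets other than controls. Genes above it on at least 1 compared array were compared, and counted at 2-fold and 1.5-fold. With 1 array per group no test was possible, and the number of arrays limits the precision. Another probe set of a gene lay a median of 0.20 from the gene's difference, and 0.55 at the 90th percentile.

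The 38 lists (1172 genes, 1019 on the array), the comparison and the alternatives were chosen with earlier results of these data known. The text names the 15 largest differences in each direction, genes whose probe sets all passed 1.5-fold (1 of these is not reported here), list members past it, genes past it in both populations, and the study's factors with known targets; other members are given for context and were picked after their values were seen. Scripts ran in Python 3.11.15 (pandas 2.3.3, statsmodels 0.14.6) and the counting was tested on simulated data.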

Additional observations from a re-analysis of the deposited data

Results flagged for a closer look

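In 5 of the 8247 genes compared in both, SF and Epo differed by 1.5-fold or more in opposite directions in the 2 cell populations. Beside them 4 genes were lower and 2 higher in both. The 5 were picked as past 1.5-fold on each side, so large gaps between the populations follow in part from the choice. With 1 array per group this difference between populations was not tested. The DbSCL difference minus the vector difference was −1.63 for TUBB2A, −1.66 for MTA1, −1.59 for EWSR1, 1.41 for HMG20B and 1.43 for ARPC1A. MTA1, a subunit of the NuRD deacetylase complex, and EWSR1, an RNA-binding protein gene, each had a second probe set, which gave 0.08 and 0.06 in DbSCL cells. In HMG20B, a partner of the LSD1 demethylase, and ARPC1A the vector Epo array had the highest signal of the 5.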

How the results depend on the processing

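No paired analysis was possible because each group has 1 array and the labels give no replicate numbers. For the same reason no array could be left out. When a gene's probe sets were averaged 1 gene was 2-fold higher and 10 lower, and 50 were higher and 138 lower at 1.5-fold, of which 49 and 130 were among those counted with the brightest probe set. Under this setting TCF3 gave 0.17, KLHDC10 −0.34 and AQP3 −0.41. A floor at the 60th percentile left 50 higher at 1.5-fold, of 6169 genes compared. Quantile normalization gave 10 genes 2-fold lower and loess on the mean signal 11, each sharing 10 with the 17. The correlation with the vector comparison was 0.067 after quantile normalization and ran from 0.067 to 0.118 over all alternatives, without TCF3 included, which was chosen after seeing the data. The other counts stayed within 1.5 times under no floor and median centring. DBF4, DENR, HMGN3, STIL, XK and FXYD5 were 2-fold different under all 6 alternatives. None of these genes had another probe set above the floor. Averaging left their values unchanged, so that alternative was no check on them. Of 93 genes recomputed under them, none that was called at 1.5-fold changed sign where it had a value. Genes below the floor at percentile 60 on both DbSCL arrays, such as AP4M1 and CDKN1B, had no value under that setting. Changes of sign were not counted for the uncalled ones, whose differences lie nearer to 0. GTF2H5, MED1, EIF1B, ETF1, NDUFA5, NDUFB1, NDUFAF1, DNAJC15, PFDN4 and HEPH were not among the 93. Of the 38 list medians 16 were below 0 and 8 above 0 under every setting. Signals near the floor limit the differences of weak genes, which are shortened when 1 side is set to it.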

Other observations

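Probe sets left out of the comparison because the annotation gives them several symbols or none held some further differences. Of 1675 such probe sets above the floor on a DbSCL array, 2 were 2-fold higher and 5 lower under SF than under Epo, and 24 and 38 at 1.5-fold.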
